A study of Mus musculus with 6 samples.

Results

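Guanylate-binding proteins (GBPs), immunity-related GTPases (IRGs) and the transcription factor Irf1 were followed in macrophages sorted from mouse heart allografts. The set lists 10 genes: Gbp2, Gbp3, Gbp4, Gbp5, Gbp7, Irgm1, Igtp, Iigp1, Ifi47 and Irf1. A gene entered through probe sets annotated with exactly 1 gene symbol, and the brightest of these over all arrays stood for it. This gave values for 8 of the 10 genes, each on its only such probe set, out of 22180 genes in all. Gbp2 and Ifi47 lie only on probe sets that carry a second symbol as well, and they were not analysed here.

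Interferon-gamma, made mainly by T cells and natural killer (NK) cells, binds a receptor of 2 chains that signals through the kinases JAK1 and JAK2. Target promoters carry gamma-activated sites (GAS) and interferon-stimulated response elements (ISRE), and IRF1, itself an early target, binds the latter. GBPs and IRGs are among the most strongly induced products of this pathway in macrophages, where they assemble on the vacuoles of intracellular microbes. They are often read as markers of a macrophage that has met interferon-gamma, as in a graft attacked by T cells.

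Hearts of BALB/c donors had been placed in fully allogeneic C57BL/6 recipients. On day 6, macrophages in the graft were isolated by cell sorting. For 3 samples the recipients had received mTORi-HDL, high-density lipoprotein nanoparticles loaded with an inhibitor of the kinase mTOR. The dose was 5 mg/kg, given on day 0, day 2 and day 5. For the other 3 samples the recipients were untreated and rejected the graft. No group had the lipoprotein without the inhibitor, and the ages of the mice, the sort markers and any pooling of recipients are not given in the sources used here. Each sample was read on 1 array as log2 expression, and p-values measure only the spread between these samples.

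The array mTORi-HDL 1 stood apart. Its gene values had an SD of 1.41, where the other 5 arrays had 1.86 to 1.94. On the mean of the other arrays it had a slope of 0.58, against 0.96 to 1.02 for the rest, so bright genes on average read low on it. Over all probe sets it correlated with the other arrays at 0.71 to 0.74, where those had 0.89 to 0.91 among themselves. A low correlation also lowers such a slope, and what set this array apart was not tested. It lay below all 3 untreated arrays for 27.3% of all genes and above them for 49.8%. Fold changes and counts are therefore given without it and with it. The 6 arrays limit the precision. Among 22180 genes, 0 passed an adjusted p of 0.05 in limma's test over all arrays and 0 without mTORi-HDL 1. An unadjusted p under 0.05 was found for 1029 (4.64%) and 1547 genes (6.97%).

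The promoters are shown first, because GAS and ISRE elements are known to lie in such stretches. RefSeq windows of assembly GRCm38.p6, each 250 bases before and 50 after an annotated start, were matched by symbol for 8 of the 10 listed genes. The table used here gave no window for Gbp4 and Iigp1. The ISRE-type motif searched was GAAA, any 2 bases and GAAA again, and the GAS-type motif was TTCNNNGAA. Both strands were searched, and neither motif contains the other. Capitals mark every match in the 200 bases before the start, printed 5′ to 3′ on the gene's strand.
Gbp3, chr3:142559844-142560043, + strand: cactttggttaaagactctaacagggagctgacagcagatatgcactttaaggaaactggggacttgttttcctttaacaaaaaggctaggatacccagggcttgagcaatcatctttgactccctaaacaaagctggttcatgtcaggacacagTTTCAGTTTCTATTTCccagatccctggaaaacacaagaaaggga
Gbp5, chr3:142496734-142496933, + strand: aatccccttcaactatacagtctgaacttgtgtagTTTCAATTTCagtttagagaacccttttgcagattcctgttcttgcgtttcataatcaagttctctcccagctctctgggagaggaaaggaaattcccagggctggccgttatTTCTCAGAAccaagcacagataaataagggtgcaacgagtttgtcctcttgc
Gbp7, chr3:142530136-142530335, + strand: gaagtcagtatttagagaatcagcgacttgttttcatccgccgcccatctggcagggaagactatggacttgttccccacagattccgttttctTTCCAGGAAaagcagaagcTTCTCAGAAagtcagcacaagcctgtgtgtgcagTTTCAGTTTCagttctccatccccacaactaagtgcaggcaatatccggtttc
Irgm1, chr11:48871421-48871620, - strand: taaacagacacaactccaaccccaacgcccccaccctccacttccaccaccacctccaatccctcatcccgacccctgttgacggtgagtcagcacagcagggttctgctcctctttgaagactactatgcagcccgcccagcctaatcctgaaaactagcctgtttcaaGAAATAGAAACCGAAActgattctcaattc
Igtp, chr11:58199356-58199555, + strand: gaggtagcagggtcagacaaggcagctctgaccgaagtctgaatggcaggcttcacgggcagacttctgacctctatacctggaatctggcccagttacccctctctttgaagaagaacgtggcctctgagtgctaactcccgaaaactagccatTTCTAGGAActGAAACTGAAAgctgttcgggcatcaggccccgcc
Irf1, chr11:53769814-53770013, + strand: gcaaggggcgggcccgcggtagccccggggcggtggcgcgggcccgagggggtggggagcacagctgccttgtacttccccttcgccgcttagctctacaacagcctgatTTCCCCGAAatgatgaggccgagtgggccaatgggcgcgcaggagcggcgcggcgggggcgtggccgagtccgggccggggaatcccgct

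An ISRE-type match was found in the windows of 6 of the 8 listed genes with a window (Gbp2, Gbp3, Gbp5, Gbp7, Irgm1 and Igtp) and in 3.44% of all 32851 windows. A GAS-type match was found for 4 of the 8 (Gbp5, Gbp7, Igtp and Irf1) and in 8.3% of all windows. Both kinds were present for Gbp5, Gbp7 and Igtp, against 0.454% of all windows. In Gbp3 and Irgm1 a pair of ISRE-type matches overlapped, starting at -45 and -39 and at -30 and -24. Irf1 had a GAS-type match alone, at -90, and the window of Ifi47 held neither motif. Gbp3 and Irf1 each have a further window, from another start, without a match. These matches are descriptions of letters and not measured binding.

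**Figure D1:**
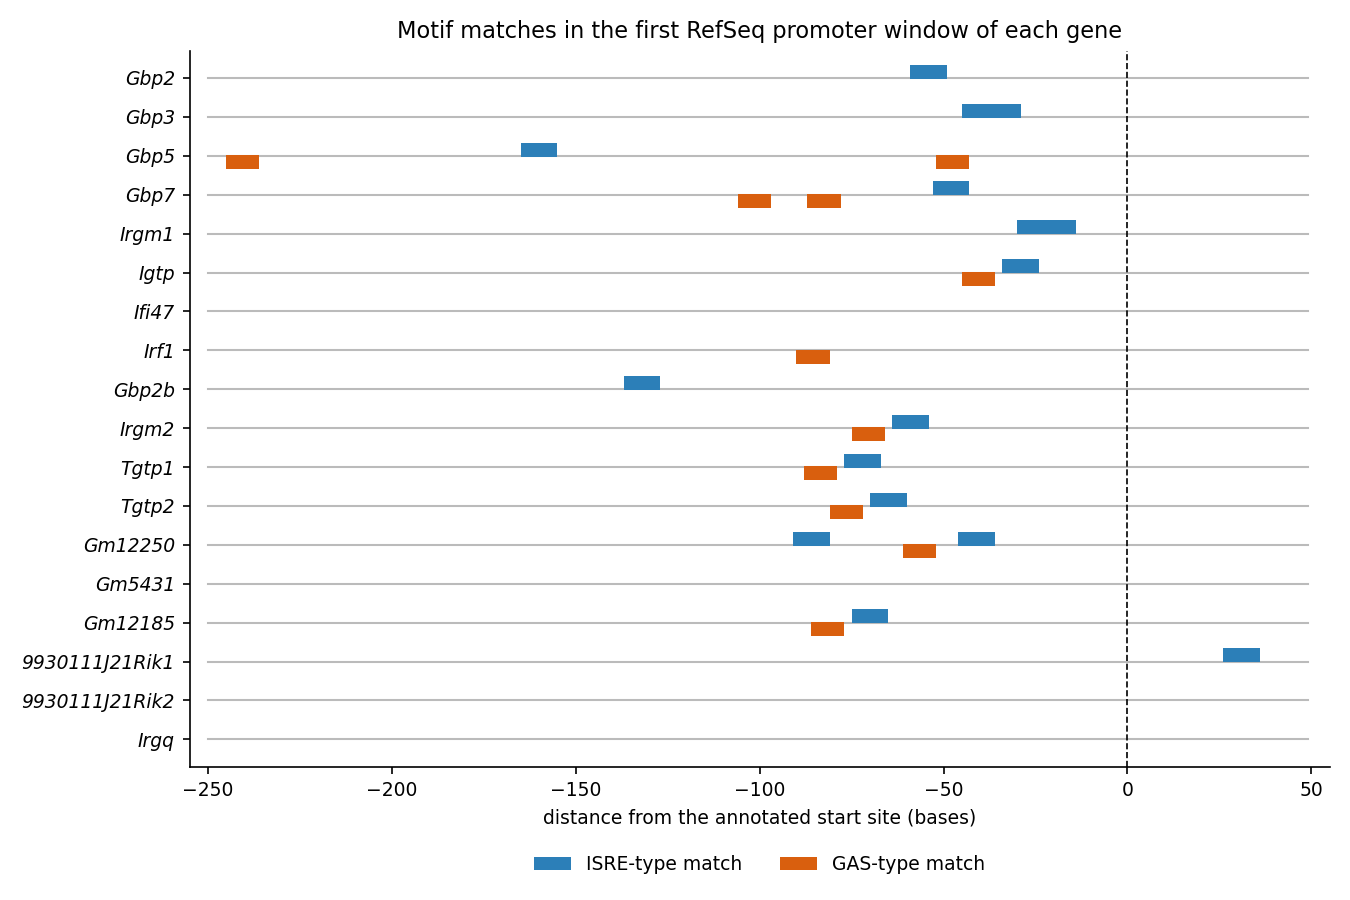
Positions of ISRE-type (blue) and GAS-type (orange) matches along the first RefSeq promoter window of each gene. The x axis gives the distance from the annotated start site in bases, and the y axis the genes. Shown are the 18 genes with a window, from both families and Irf1, among them Gbp2b alone of the 6 GBP genes outside the set. Most matches lie nearer to the start than -106, the first GAS-type match shown for Gbp7, and Igtp, Irgm2, Tgtp1, Tgtp2 and Gm12185 show the same side-by-side arrangement.

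Igtp shares a compact element with other IRG genes of the same chromosome. A GAS-type match followed by an ISRE-type match that starts 11 bases later was found in 5 of the 32851 windows (0.0152%), those of Igtp, Irgm2, Tgtp1, Tgtp2 and Gm12185. This spacing was chosen after the windows were seen. The element is shown with 4 bases on either side, 29 bases in all, both matches in capitals.
Igtp, chr11:58199507-58199535, + strand: ccatTTCTAGGAActGAAACTGAAAgctg
Irgm2, chr11:58214898-58214926, + strand: ccatTTCCAGGAActGAAACTGAAAgctg
Tgtp1, chr11:48992310-48992338, - strand: ccatTTCCAGGAAtcGAAACTGAAAccta
Tgtp2, chr11:49064269-49064297, - strand: ccatTTCCAGGAAtcGAAACCGAAAccta
Gm12185, chr11:48927244-48927272, - strand: ccatTTCCAGGAAtaGAAAGTGAAAccta
The stretch of Irgm2, the next gene after Igtp on the chromosome, is identical to that of Igtp at 28 of 29 positions, and those of Tgtp1, Tgtp2 and Gm12185 at 24, 23 and 23. Of these genes Igtp, Irgm2 and Gm12185 were measured on probe sets of their own.

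The comparison asked whether mTORi-HDL altered the interferon-gamma programme of the graft macrophages. On the treated arrays mTORi-HDL 2 and 3, the 8 measured genes of the set were mostly higher than in untreated samples. Among these 8 the difference reached 1.95-fold, for Gbp5 and Irf1. On mTORi-HDL 1 all 8 lay below every untreated array, as did 27.3% of all genes. The 8 were bright genes, at percentiles 88.8 to 99.2 of the untreated level, and bright genes on average read low on that array. None of the 8 passed limma's test adjusted over all genes, with or without mTORi-HDL 1. For all 8, mTORi-HDL 1 lay below the untreated mean and mTORi-HDL 2 and 3 above it. In bulk samples such as these, fewer or more cells of a type and less or more RNA per cell cannot be told apart.

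Irf1, the transcription factor that carries the interferon-gamma signal to many of its targets, had log2 levels of 7.14, 6.80 and 6.80 in the untreated samples. It read 5.27, 7.42 and 8.33 on mTORi-HDL 1, 2 and 3. Arrays 2 and 3 were both above all untreated arrays, and they differed from each other by more than the untreated arrays did. Without mTORi-HDL 1 the log2 fold change was 0.96 ± 0.32 (SE), with a 95% interval of 0.20 to 1.72 (limma, adjusted p = 0.574). Over all arrays it was 0.09 ± 0.71 (adjusted p = 0.983).

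Irgm1 is a regulatory IRG that holds effector IRGs inactive on the cell's own membranes and is needed for resistance to mycobacteria in mice. It had log2 levels of 7.61, 7.79 and 7.45 in untreated samples and of 6.98, 8.43 and 8.03 on mTORi-HDL 1, 2 and 3. Both of the latter arrays lay above the untreated ones, with a log2 fold change of 0.61 ± 0.24 (SE; 95% interval 0.04 to 1.18; limma, adjusted p = 0.686). Over all arrays it was 0.20 ± 0.40 (adjusted p = 0.927).

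Igtp, also called Irgm3, is a second regulatory IRG, and it was the gene of the set with the least difference on arrays 2 and 3. Its log2 levels were 10.47, 10.57 and 10.70 in untreated samples and 6.79, 10.65 and 10.64 on mTORi-HDL 1, 2 and 3. The latter pair fell within the untreated range. Without mTORi-HDL 1 the log2 fold change was 0.06 ± 0.21 (SE), and its 95% interval of -0.44 to 0.56 includes differences in either direction (limma, adjusted p = 0.984). With that array it was -1.22 ± 0.97 (adjusted p = 0.890).

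Iigp1, also called Irga6, is an effector IRG that coats and breaks open the vacuole of Toxoplasma. It was the only one of the 8 whose level on mTORi-HDL 1 came within 0.3 of the untreated mean. It had log2 levels of 9.88, 9.82 and 10.37 in untreated samples and of 9.80, 10.56 and 10.66 on mTORi-HDL 1, 2 and 3. Arrays 2 and 3 were above the untreated ones by a small margin. The log2 fold change was 0.58 ± 0.25 (SE) without mTORi-HDL 1 (95% interval -0.02 to 1.19; limma, adjusted p = 0.730) and 0.32 ± 0.33 with it (adjusted p = 0.890).

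Gbp5 promotes assembly of the NLRP3 inflammasome, and among the 4 measured GBPs of the set it had the widest spread. Its log2 levels were 8.33, 8.41 and 8.82 in untreated samples and 4.84, 9.26 and 9.70 on mTORi-HDL 1, 2 and 3. Arrays 2 and 3 lay above and mTORi-HDL 1 far below the untreated arrays. The log2 fold change was 0.96 ± 0.26 (SE) without mTORi-HDL 1 (95% interval 0.33 to 1.59; limma, adjusted p = 0.451) and -0.59 ± 1.17 with it (adjusted p = 0.923).

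Gbp4 lies in the second GBP cluster of the mouse, between Gbp9 and Gbp10. It had log2 levels of 7.90, 8.23 and 7.87 in untreated samples and of 6.44, 8.69 and 8.80 on mTORi-HDL 1, 2 and 3. Arrays 2 and 3 were close to each other and above the untreated arrays, at 8.74 ± 0.08 (SD, n = 2) against 8.002 ± 0.20 (SD, n = 3). The log2 fold change was 0.74 ± 0.23 (SE) without mTORi-HDL 1 (95% interval 0.20 to 1.28; limma, adjusted p = 0.516) and -0.03 ± 0.62 with it (adjusted p = 0.995).

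Gbp7 and Gbp3 follow Gbp5 in the first cluster, in that order on the chromosome. Gbp7 takes part in macrophage defence against intracellular bacteria, and it had log2 levels of 8.73, 8.92 and 8.58 in untreated samples and of 6.17, 9.04 and 9.54 on mTORi-HDL 1, 2 and 3. Array 2 exceeded the highest untreated array by only 0.12, and the log2 fold change was 0.54 ± 0.25 (SE) without mTORi-HDL 1 (limma, adjusted p = 0.753) and -0.50 ± 0.81 with it (adjusted p = 0.911).

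Gbp3 had log2 levels of 8.21, 7.92 and 7.28 in untreated samples and of 5.61, 8.07 and 8.35 on mTORi-HDL 1, 2 and 3. Arrays 2 and 3 overlapped with the untreated ones, whose own spread was the widest of the set (SD 0.48, n = 3). The log2 fold change was 0.41 ± 0.32 (SE) without mTORi-HDL 1 (95% interval -0.36 to 1.17; limma, adjusted p = 0.886) and -0.46 ± 0.71 with it (adjusted p = 0.908).

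**Figure D2:**
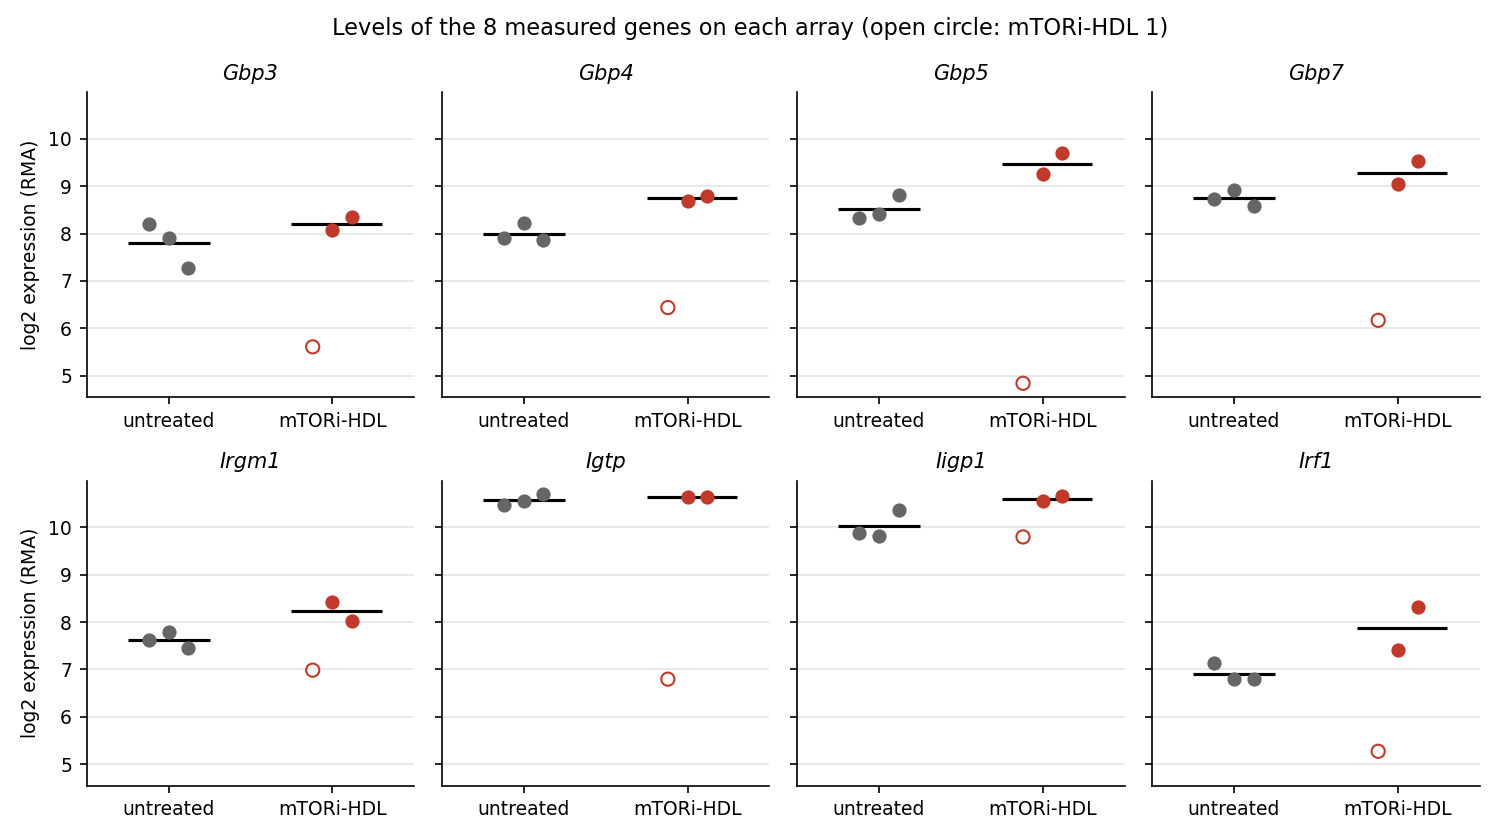
Log2 expression (y axis) of the 8 measured genes on each untreated array (grey) and treated array (red), 1 point per array, with mTORi-HDL 1 as an open circle. The lines are the means of the 3 untreated arrays and of mTORi-HDL 2 and 3, and the open circle is the lowest point in all 8 panels.

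Counted over the set, 6 of the 8 genes (all but Gbp3 and Igtp) had mTORi-HDL 2 and 3 above all 3 untreated arrays, and 9.75% of all genes did. An unadjusted p under 0.05 with a higher level was found for Irf1, Irgm1, Gbp4 and Gbp5, 4 of the 8, against 3.47% of all genes, and with a lower level for 0 of the 8, against 3.51%. All 8 had a log2 fold change above 0, as 46.6% of all genes did, and 0 had treated arrays all below the untreated ones (12.5%). The median log2 fold change of the 8 was 0.60 without mTORi-HDL 1, where that of all genes was -0.03. Over all arrays 0 of the 8 had treated arrays all above the untreated ones (5.37% of all genes), 0 had them all below (5.53%), and 0 had an unadjusted p under 0.05 in either direction (1.57% of all genes higher, 3.07% lower). There 3 of the 8 had a log2 fold change above 0, against 58.2% of all genes, and the median was -0.24, against 0.08 for all genes. The genes had been chosen with results of these arrays known, so these shares describe the set and do not test it. The same shares of all genes stand beside the counts of the gene lists below.

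The sign of the median over all arrays depended on the scaling and weighting. It was -0.32 after median centring, against -0.24 as deposited, and turned to 0.10 after quantile normalization, 0.37 after cyclic loess, 0.13 when each array was rescaled along its line on the other arrays, and 0.54 when limma weighted the arrays by their quality. With that linear rescaling the genes parted on mTORi-HDL 1. Their differences from the untreated mean there were -3.21 for Gbp5, -1.78 for Igtp, -1.21 for Gbp3, -1.13 for Gbp7 and -0.95 for Irf1. Gbp4 was at 0.03, while Irgm1 and Iigp1 lay above the untreated mean, at 1.33 and 3.90. For Iigp1 the level on mTORi-HDL 1 went from 9.80 to 13.59. The slope of this array is lowered by its low correlation with the others, so the rescaling may spread its values too widely.

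Most of the rest of both families was also higher without mTORi-HDL 1, but fewer genes were clear of the untreated arrays. Arrays 2 and 3 lay above all untreated arrays for 2 of the 6 other GBPs and 4 of the 9 other IRG genes. This held for 6 of the 8 genes of the set and for 9.75% of all genes. Of the 6 other measured GBPs, 5 were higher without mTORi-HDL 1, 2 of them at an unadjusted p under 0.05, with a median log2 fold change of 0.68. Over all arrays 3 were higher and 3 lower, with an unadjusted p under 0.05 for Gbp2b alone and with a median of -0.03. The 2 genes were Gbp11 (2.90, 2.16 and 2.53 in untreated samples; 2.57, 3.92 and 4.71 on mTORi-HDL 1, 2 and 3) and Gbp2b (7.995, 7.17 and 6.995; 7.81, 8.57 and 9.28). Gbp2b, the mouse gene once called Gbp1, was 2.91-fold higher without mTORi-HDL 1, a log2 fold change of 1.54 ± 0.38 (SE; limma, adjusted p = 0.408), and for Gbp11 this was 1.78 ± 0.34 (adjusted p = 0.254). With mTORi-HDL 1 these values were 1.17 ± 0.45 and 1.20 ± 0.54. The untreated level of Gbp11 was at percentile 10.7 of all genes, about as low as that of Gbp6, and no detection call was used here, so the size of its fold change is uncertain.

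The GBPs of the second cluster were less even. Gbp8 had 8.30, 9.47 and 7.12 in untreated samples, a range wider than its difference of 0.73 without mTORi-HDL 1 (-0.07 with it). Gbp9 had 9.92 on mTORi-HDL 2 and 7.92 on mTORi-HDL 3, on either side of the untreated mean of 8.29, and Gbp10 had 7.59 and 9.45, in the reverse order, around 8.38. Their log2 fold changes were 0.63 and 0.14 without mTORi-HDL 1, and -0.19 and -0.87 with it. Gbp6 read between 2.38 and 2.92 on all arrays, with log2 fold changes of -0.05 without mTORi-HDL 1 and 0.013 with it. Close paralogues of this cluster may share probe sequence, which was not tested.

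Of the 9 other IRG genes, 8 were higher without mTORi-HDL 1, 2 at an unadjusted p under 0.05, and the median was 0.49. Over all arrays 5 were higher and 4 lower, and 1 had an unadjusted p below 0.05 (Gm4951). The median there was 0.10. The larger differences belonged to relatives of Iigp1. F830016B08Rik, which neighbours Iigp1 on its chromosome, had 5.45, 7.59 and 5.44 in untreated samples and 3.65, 8.36 and 8.02 on mTORi-HDL 1, 2 and 3. Its log2 fold change was 2.03 ± 0.65 (SE) without mTORi-HDL 1 (limma, adjusted p = 0.550) and 0.51 ± 1.25 with it. Gm4951 had 8.05, 9.75 and 6.97 in untreated samples and 10.20, 10.25 and 10.04 on the treated arrays. Its 3 treated arrays were all above the untreated ones, which held for 1 of the 22 measured GBP and IRG genes and for 5.37% of all genes. Its log2 fold change was 1.91 ± 0.64 over all arrays (limma, adjusted p = 0.890) and 1.89 ± 0.73 without mTORi-HDL 1 (adjusted p = 0.680).

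Irgm2 and Gm12185, which carry the same promoter element as Igtp, were higher than untreated without mTORi-HDL 1 by 0.80 ± 0.47 and 0.77 ± 0.36 on the log2 scale (SE; limma, adjusted p = 0.837 and 0.758), where Igtp had 0.06. Over all arrays Irgm2 was at -0.38 ± 0.97 and Gm12185 at 0.16 ± 0.56. Irgm2, the remaining regulatory IRG, had 9.38, 9.31 and 7.88 in untreated samples and 6.10, 9.74 and 9.58 on mTORi-HDL 1, 2 and 3. Untreated 3 was lower than the other untreated arrays, and mTORi-HDL 2 and 3 were both above all of them. Gm12250, the effector Irgb10, had a log2 fold change of 0.27 ± 0.28 without mTORi-HDL 1 and of -0.96 ± 0.95 with it. Gm5431 had 0.49 and 0.10, and 9930111J21Rik2 had 0.18 and -0.044. Irgc1 and Irgq, which are not known as interferon targets, had 0.03 and -0.12 without that array and 0.21 and -0.33 with it.

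**Figure D3:**
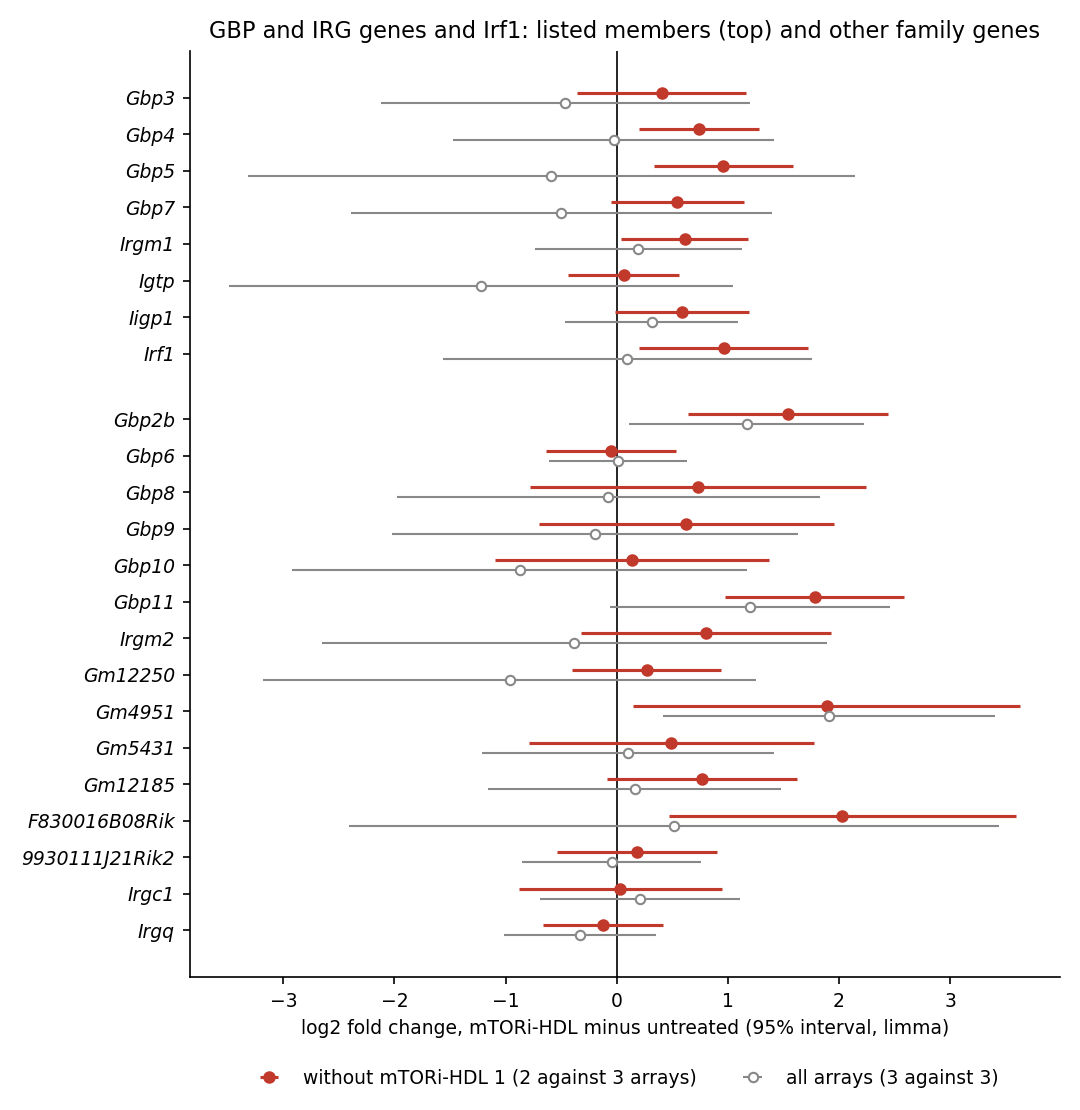
Log2 fold changes (mTORi-HDL minus untreated, x axis) with limma's 95% intervals for the 8 measured genes (top) and 15 other GBP and IRG genes, without mTORi-HDL 1 (red) and over all arrays (grey, open). The red points lie right of 0 for all 8 genes, and the grey intervals of Gbp5 and Igtp are the widest of the set.

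The ligand was lower on all 3 treated arrays. Ifng, whose product is made by T and NK cells and not by typical macrophages, had log2 levels of 9.29, 9.98 and 9.53 in untreated samples and of 6.20, 9.25 and 8.83 on mTORi-HDL 1, 2 and 3. These arrays did not overlap with the untreated ones, as for 5.53% of all genes. The log2 fold change was -1.50 ± 0.75 (SE) over all arrays (limma, adjusted p = 0.890) and -0.55 ± 0.29 without mTORi-HDL 1 (95% interval -1.24 to 0.13; adjusted p = 0.786).

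The receptor chains were measured separately. Ifngr2, the signalling chain, had 7.23, 6.96 and 6.92 in untreated samples and 6.70, 7.85 and 8.003 on mTORi-HDL 1, 2 and 3, a log2 fold change of 0.89 ± 0.22 (SE) without mTORi-HDL 1 (limma, adjusted p = 0.408) and 0.48 ± 0.39 with it. Ifngr1, the ligand-binding chain, had 10.23, 10.21 and 10.03 in untreated samples and 4.88, 10.03 and 9.90 on the treated arrays, with a log2 fold change of -0.19 ± 0.21 without mTORi-HDL 1 and -1.89 ± 1.27 with it. The difference between the chains was not tested.

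Of the kinases, Jak1 had 5.64, 9.42 and 9.21 on mTORi-HDL 1, 2 and 3, against 9.73 to 9.84 in untreated samples. Its 3 treated arrays were all below the untreated ones, as for 5.53% of all genes. Jak2 had 3.67, 8.81 and 8.88, against 8.52 to 8.80. The log2 fold changes of Jak1 and Jak2 without mTORi-HDL 1 were -0.46 ± 0.21 and 0.21 ± 0.21 (SE), and with it -1.69 ± 0.93 and -1.52 ± 1.29. Stat2 had 0.08 and -0.39, and Stat3 -0.21 and -1.52. Of these 7 genes for the ligand, its receptor and their signalling, 3 were higher and 4 lower without mTORi-HDL 1, and Ifngr2 alone had an unadjusted p under 0.05. Over all arrays 1 was higher and 6 lower, 0 at such a p, and on mTORi-HDL 1 the difference of their mean from the untreated mean was -3.37.

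Among 6 other IRF genes 3 were higher and 3 lower without mTORi-HDL 1, and 1 had an unadjusted p under 0.05. Over all arrays 1 was higher and 5 lower, 0 at such a p, with a median of -0.62. The 1 gene was Irf2, known as an antagonist of IRF1 at shared sites, with 8.08, 8.46 and 7.57 in untreated samples and 4.56, 8.70 and 8.92 on mTORi-HDL 1, 2 and 3 (log2 fold change without mTORi-HDL 1 0.77 ± 0.31, SE; limma, adjusted p = 0.686). With that array it was -0.64 ± 1.08. Irf8, which macrophages need to develop and to answer interferon-gamma, had a log2 fold change of 0.78 ± 0.36 without mTORi-HDL 1 and 0.52 ± 0.40 with it, with array 3 (9.73) inside the untreated range of 9.23 to 9.81 and array 2 (10.78) above it. Irf7 and Irf9 had 0.47 and -0.61 without mTORi-HDL 1, and -0.022 and -0.79 with it.

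Of 9 feedback genes 6 were higher without mTORi-HDL 1, 2 of them with an unadjusted p under 0.05. With all 6 arrays 3 were higher, 1 at such a p, and 6 lower, with a median of -0.46, against 0.38 without that array. Socs3, an inhibitor of JAK signalling best known for the IL-6 receptor family, was at 8.08, 9.01 and 8.38 in untreated samples and at 9.94, 10.03 and 9.50 on the treated arrays. Its 3 treated arrays were all above the untreated ones, as for 5.37% of all genes. The log2 fold change was 1.33 ± 0.33 (SE) over all arrays (limma, adjusted p = 0.789) and 1.27 ± 0.34 without mTORi-HDL 1. Socs1, the main inhibitor of the interferon-gamma receptor, had 0.50 ± 0.33 without mTORi-HDL 1 and 0.33 ± 0.35 with it. Irf2bp2 had 0.69 and 0.24, and Pias1 0.48 and -0.50.

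Other known interferon-gamma targets were also mostly higher on arrays 2 and 3. Of 31 measured, 26 were higher without mTORi-HDL 1, 11 at an unadjusted p under 0.05 and none of the lower ones, with a median log2 fold change of 0.43. Over all arrays 16 were higher, 3 at an unadjusted p under 0.05, and 15 lower, 1 at such a p, with a median of 0.017. Cxcl9 and Cxcl10, chemokines that draw T cells, were above the untreated arrays on all 3 treated arrays, as were 5.37% of all genes. Cxcl11, a ligand of the same receptor, was not. Cxcl9 had 11.59, 11.72 and 11.38 in untreated samples and 11.85, 12.48 and 12.52 on the treated arrays, and Cxcl10 had 8.85, 9.28 and 8.56 against 10.41, 9.74 and 9.60. Cxcl11 had 6.68, 7.43 and 6.10 in untreated samples and 5.90, 9.01 and 7.97 on mTORi-HDL 1, 2 and 3.

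Over all arrays the log2 fold change was 0.72 ± 0.29 for Cxcl9 and 1.02 ± 0.34 for Cxcl10 (SE; limma, adjusted p = 0.890 for both), and without mTORi-HDL 1 it was 0.94 and 0.77. H2-DMa, which loads peptide onto class II molecules, had 8.77, 9.20 and 8.76 in untreated samples and 7.35, 10.44 and 10.40 on mTORi-HDL 1, 2 and 3 (log2 fold change without mTORi-HDL 1 1.51 ± 0.24; limma, adjusted p = 0.172). With that array it was 0.49 ± 0.79. H2-Aa had 0.96 ± 0.20 without mTORi-HDL 1 and 0.63 ± 0.34 with it, and Ciita, the master regulator of class II genes, 0.88 ± 0.28 and 0.16 ± 0.60. Nlrc5, its class I counterpart, had 0.34 ± 0.28 and -0.16 ± 0.46. Batf2, a partner of IRF1 in activated macrophages, had 1.37 ± 0.29 and 0.85 ± 0.48, and the Fc receptor gene Fcgr1 1.99 ± 0.46 and 1.84 ± 0.44.

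Targets of type I interferon, which also induces GBPs, were examined beside them. Of 23 genes 15 were higher without mTORi-HDL 1, 4 at an unadjusted p under 0.05, and 1 of the 8 lower ones had such a p, with a median of 0.43. Over all arrays 9 were higher, 0 at such a p, and 14 lower, 2 at such a p, with a median of -0.036. Mx2 had 3.21, 3.62 and 2.82 in untreated samples and 2.79, 5.09 and 4.86 on mTORi-HDL 1, 2 and 3 (log2 fold change without mTORi-HDL 1 1.76 ± 0.29, SE; limma, adjusted p = 0.187). With that array it was 1.03 ± 0.61. Isg15, Oasl2 and Ifit1 had 0.94, 1.13 and 0.64 without mTORi-HDL 1 and -0.25, 0.41 and -0.27 with it, while Rsad2, or viperin, stayed between 3.69 and 4.27 on all arrays. Treated arrays lay all above the untreated ones for 0 of the 23 over all arrays (5.37% of all genes) and for 6 without mTORi-HDL 1 (9.75%). They lay all below for 3 (5.53%) and for 4 (12.5%). The 3 were Isg20, Ddx58 and Oas3, with -0.60, -0.52 and -0.25 without mTORi-HDL 1 and -0.69, -0.87 and -0.44 with it.

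GBPs and IRGs act with autophagy proteins and with the inflammasome. Of 20 such genes 13 were higher and 7 lower without mTORi-HDL 1, with 1 at an unadjusted p under 0.05 in each direction and a median log2 fold change of 0.24. Over all arrays 10 were higher, 0 at such a p, and 10 lower, 1 at such a p, with a median of -0.052. Atg12, whose conjugate helps load IRGs onto vacuoles, had 0.92 ± 0.24 without mTORi-HDL 1 (SE; limma, adjusted p = 0.428) and 0.39 ± 0.47 with it. Gabarapl1 had -0.79 ± 0.23 (limma, adjusted p = 0.476) and -0.99 ± 0.29 and was below the untreated arrays on all 3 treated ones, as were 5.53% of all genes. Atg7 had 0.65 without mTORi-HDL 1 and 0.17 with it, and Casp1 0.47 and 0.38.

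Markers of the cells in the sorts differed along with these genes. The 2 brightest macrophage markers were Lyz2, at 10.80 to 11.62, and Cd68, at 8.78 to 10.87 over all arrays. Other macrophage markers read lower, such as C1qc at 5.65 to 6.69 and Mertk at 3.83 to 5.93. The mean log2 level of 13 macrophage markers was 7.005 to 7.49 in untreated samples and 6.86, 8.10 and 8.75 on mTORi-HDL 1, 2 and 3, and 13 of 13 were higher without mTORi-HDL 1 and 10 of 13 with it. Of the T cell markers the 2 brightest were Cd3d and Cd3g, at 8.37 to 11.45 and at 8.63 to 10.96. The mean of 11 T cell markers was 9.14 to 9.36 in untreated samples and 6.60, 8.12 and 8.20 on the treated arrays, and 11 of 11 were lower, with or without mTORi-HDL 1.

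For 12 markers of NK and cytotoxic lymphocytes the mean was 8.70 to 9.36 and, on the treated arrays, 7.29, 8.68 and 8.51. Of the 12, 10 were lower without mTORi-HDL 1 and 11 with it, and without it their log2 fold changes ran from -1.84 to 0.73. The 2 brightest, Gzma and Nkg7, had -0.18 and -0.33 without mTORi-HDL 1 and -0.19 and -0.42 with it. The part of these cells in the higher GBP and IRG levels and in the lower Ifng level was not tested.

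The means of fibroblast and mural cell markers and of B and plasma cell markers also separated the groups, but many single markers did not. The mean of 8 fibroblast and mural markers was 4.29 to 4.51 in untreated samples and 5.49, 5.56 and 5.29 on mTORi-HDL 1, 2 and 3, all above. Of the 8, 7 were higher over all arrays, 4 of them without overlap (5.37% of all genes). The mean of 6 B and plasma cell markers was 6.45 to 6.64 and 5.56, 6.24 and 6.01, all below. All 6 were lower over all arrays, 1 of them without overlap (5.53% of all genes). The mean of 7 dendritic cell markers was 5.13 to 5.24 and, on the treated arrays, 5.08, 5.99 and 5.64, above on arrays 2 and 3 only. For 8 cardiomyocyte markers it was 4.22 to 4.84 and 5.04, 4.96 and 4.78. Cardiomyocyte means overlapped, as did neutrophil (4.17 to 5.42; 5.28, 4.39 and 4.77) and endothelial means (3.98 to 4.45; 4.44, 4.35 and 4.19). The part of these cells in the results was not tested.

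**Figure D4:**
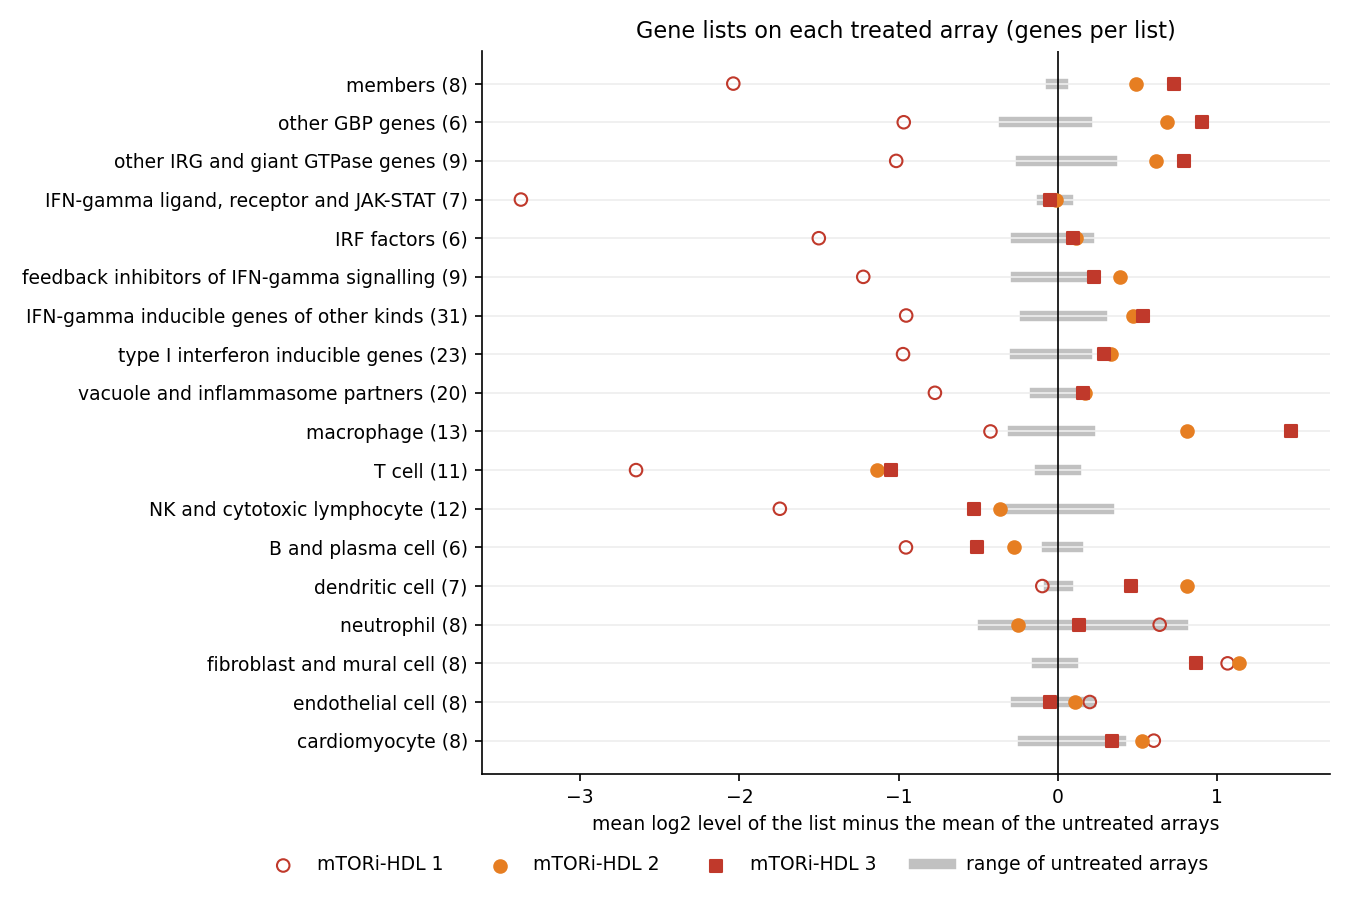
Mean log2 level of each gene list on the 3 treated arrays, as the difference from the mean of the untreated arrays (x axis), with the range of the untreated arrays as a grey bar and the number of genes in brackets; "members" are the 8 measured genes. On mTORi-HDL 2 and 3 the 8 genes lie 0.49 and 0.73 above the untreated mean, macrophage markers 0.81 and 1.46 above, and T cell markers at -1.14 and -1.05.

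The profile of the 8 genes over the 6 arrays was matched most closely by Runx3, Akr1a1, Pdcd6, Znfx1 and Arhgef3. The mean of the 8 differed from the untreated mean by -2.04 on mTORi-HDL 1 and by 0.49 and 0.73 on arrays 2 and 3. The low values on mTORi-HDL 1 therefore weigh most in this match, and none was made without that array. Likeness was the root mean square difference between a gene, centred on its own mean, and the mean of the 8 centred genes, and it was 0.11, 0.12, 0.14, 0.14 and 0.14 log2 units. Runx3, a transcription factor of cytotoxic lymphocytes and other leukocytes, read 6.28, 6.53 and 6.36 in untreated samples and 4.11, 6.83 and 7.11 on the treated arrays, with log2 fold changes of 0.58 without mTORi-HDL 1 and -0.37 with it. Among the 8 genes themselves this difference ran from 0.20 for Gbp4 to 0.71 for Gbp5 and Iigp1, so these 2 were least like the mean of the set.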

How the data were processed

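The table deposited by the authors holds log2 expression values of 41345 probe sets on 6 arrays. The submitters' processing notes name Affymetrix Expression Console and RMA. Versions and the genome build are not given in the sources used here. RMA gives arrays a common distribution of probe intensities before probes are combined. The RNA input to amplification was 15 ng a sample, per the labels' protocols. Probe sets with 1 symbol numbered 23521, with several 1814 and with none 16010. The brightest 1-symbol probe set stood for each of 22180 genes. The group difference was fitted with limma 3.58.1 (R 4.3.3; lmFit, eBayes, group as the only term, two-sided, Benjamini-Hochberg over all genes), with 4 residual degrees of freedom over all arrays and 3 without mTORi-HDL 1. The fit was tested on simulated data with the same spread for every gene and no array like mTORi-HDL 1. That test therefore does not cover the effect of such an array. Array intensities have no read depth.

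The genes, lists and named-gene rule were chosen with earlier results of these data known. Named were the 8 genes, other GBP, IRG and JAK-STAT pathway genes, up to 4 genes with the smallest p per further list and a panel, the 5 most similar profiles, and the 2 brightest markers per cell type. Alternatives were other scalings, filters, variance models, probe-set rules and thresholds, the replicate block and each array left out.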

Additional observations from a re-analysis of the deposited data

How the results depend on the processing

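No alternative run took any of the 8 genes past limma's adjusted p of 0.05, and 0 genes of the whole table passed it except with array weights (1 gene), at an adjusted p of 0.1 without mTORi-HDL 1 (2 genes), and, without mTORi-HDL 1, when another array was left out in turn (0 to 6 genes, with 6 when mTORi-HDL 2 was dropped and 1 when mTORi-HDL 3 was). Where that left 1 treated array, its spread was assumed to equal that of the untreated arrays. The median log2 fold change of the 8 genes without mTORi-HDL 1 ran from 0.52 to 0.71 with each further array left out. Over all arrays it ran from -0.77 to 0.60, and leaving out mTORi-HDL 1 turned its sign. Over all arrays the sign turned for Gbp4 with quantile normalization (0.41), cyclic loess (0.58), linear rescaling (0.48) and array weights (0.66). It turned for Gbp3 and Gbp7 with cyclic loess (0.16 and 0.059) and array weights (0.34 and 0.46), and for Gbp5 with array weights (0.77). Without mTORi-HDL 1 only Igtp turned, with quantile normalization (-0.012). With each array left out of all 6, ranges were -0.97 to 0.41 for Gbp3, -0.44 to 0.74 for Gbp4, -1.47 to 0.96 for Gbp5, -1.14 to 0.54 for Gbp7, -0.11 to 0.61 for Irgm1, -1.86 to 0.063 for Igtp and -0.57 to 0.96 for Irf1. Apart from the exclusion of mTORi-HDL 1, signs turned there for Irgm1 and Irf1 without mTORi-HDL 2, Irf1 without mTORi-HDL 3 and Gbp4 without untreated 2; the cause was not tested. Iigp1 kept its sign under every alternative. Same-numbered arrays share a number in their labels, and no pairing is given there. Their deviations from the group means correlated at 0.14, 0.13 and -0.02. With 3 arrays per group and mTORi-HDL 1 apart from the rest, these values cannot show whether the arrays were paired. With the replicate block 0 genes passed, with a median of -0.24 over all 6 arrays and of 0.61 once mTORi-HDL 1 was left out.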
